A study of Mus musculus with 2 samples.

Results

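The 3 chains of complement C1q are encoded by C1qa, C1qb and C1qc. They are described here with 5 genes of macrophages and related cells, Pf4, Stab1, Asgr2, Plet1 and Ccl17, in 2 single-cell RNA libraries of mouse myeloid cultures. The 8 genes, of 32285 in the count tables, were taken by symbol. They had been picked with earlier results of these libraries in view: 6 of them, all but Stab1 and Plet1, had been seen at a lower summed level with selinexor, and the question was which of the 8 occur in the same cells. Their levels in the 2 libraries are therefore a description and not a finding that the choice left free.

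The treated culture received 50 nM selinexor, a drug that blocks exportin 1 and with it the export of many proteins from the nucleus, and its control received the vehicle DMSO. Myeloid-derived suppressor cells (MDSC), which are immature myeloid cells that restrain T cells, were grown in both with IL-6 and GM-CSF at 40 ng/mL each and collected on day 4. Viable CD11b+ cells were sorted, tagged per sample and pooled for droplet capture. The sources used here name no strain, age or number of mice. Each group is 1 library, so no test was possible and every interval covers counting error only.

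C1q is the recognition unit of the classical complement pathway. Its A, B and C chains assemble into one molecule that binds antibody complexes and dying cells. Most complement proteins come from the liver, whereas C1q is made mainly by macrophages and dendritic cells. Pf4 encodes platelet factor 4 (CXCL4), a chemokine of platelets that some macrophages also make. Stab1 encodes stabilin-1, a scavenger receptor of macrophages and sinusoidal endothelium. Asgr2 encodes a subunit of the asialoglycoprotein receptor, a C-type lectin best known from hepatocytes. Plet1 encodes a surface glycoprotein known from placenta and epithelial progenitors. Ccl17 encodes a chemokine of dendritic cells and macrophages that attracts T cells bearing CCR4.

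After filtering, 1967 of 1989 barcodes remained in the selinexor library and 1743 of 1784 in the DMSO library. They held 12841480 UMIs (unique molecular identifiers, counted molecules) in the selinexor library and 14222344 in the DMSO library. The selinexor cells were shallower, with a median of 3984 UMIs per cell, against 7788 in DMSO cells. The libraries shared 0 barcodes. All 8 genes had at least 50 UMIs over both libraries, the minimum for a measured gene.

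The 3 C1q genes lie side by side on the minus strand of chromosome 4 within 18675 bases (build mm10), in the order C1qb, C1qc, C1qa by coordinate. C1qb occupies chr4:136880129-136886187, C1qc chr4:136889804-136893065 and C1qa chr4:136895917-136898803, with gaps of 3616 and 2851 bases. The other genes are on 5 other chromosomes, with Pf4 on 5, Asgr2 on 11, Plet1 on 9, Ccl17 on 8 and Stab1 on 14. RefSeq promoter windows (build GRCm38.p6, 250 bases before to 50 after the gene start) were available for 7 of the 8. They are shown for the genes whose sharing of cells is described below, on the strand of the gene, 5′ to 3′. The windows are chr4:136886151-136886450 (minus), chr4:136892865-136893164 (minus), chr5:90772185-90772484 (plus), chr14:31168592-31168891 (minus), chr9:50494275-50494574 (plus) and chr8:94810203-94810502 (plus).
C1qb: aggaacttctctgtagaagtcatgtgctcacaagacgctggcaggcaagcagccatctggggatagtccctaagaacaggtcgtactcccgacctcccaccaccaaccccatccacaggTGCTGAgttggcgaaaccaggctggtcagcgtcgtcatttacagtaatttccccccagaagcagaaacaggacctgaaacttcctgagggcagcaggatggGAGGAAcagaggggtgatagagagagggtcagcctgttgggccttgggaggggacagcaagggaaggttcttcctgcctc
C1qc: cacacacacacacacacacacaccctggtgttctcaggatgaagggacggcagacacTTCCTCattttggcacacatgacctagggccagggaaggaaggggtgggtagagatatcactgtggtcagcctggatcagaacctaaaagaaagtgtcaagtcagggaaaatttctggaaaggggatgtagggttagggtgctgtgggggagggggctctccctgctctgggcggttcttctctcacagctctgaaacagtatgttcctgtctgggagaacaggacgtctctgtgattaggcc
Pf4: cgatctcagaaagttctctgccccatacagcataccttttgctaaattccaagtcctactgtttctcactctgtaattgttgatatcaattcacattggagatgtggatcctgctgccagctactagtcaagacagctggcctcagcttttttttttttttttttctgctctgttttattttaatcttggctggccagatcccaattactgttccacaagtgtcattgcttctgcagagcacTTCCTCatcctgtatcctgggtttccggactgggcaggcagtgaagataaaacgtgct
Stab1: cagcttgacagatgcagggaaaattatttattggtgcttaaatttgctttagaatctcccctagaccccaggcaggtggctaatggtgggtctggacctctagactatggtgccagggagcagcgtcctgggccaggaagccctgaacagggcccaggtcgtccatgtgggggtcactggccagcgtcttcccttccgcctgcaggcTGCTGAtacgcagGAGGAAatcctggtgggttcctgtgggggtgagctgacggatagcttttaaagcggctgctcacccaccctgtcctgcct
Plet1: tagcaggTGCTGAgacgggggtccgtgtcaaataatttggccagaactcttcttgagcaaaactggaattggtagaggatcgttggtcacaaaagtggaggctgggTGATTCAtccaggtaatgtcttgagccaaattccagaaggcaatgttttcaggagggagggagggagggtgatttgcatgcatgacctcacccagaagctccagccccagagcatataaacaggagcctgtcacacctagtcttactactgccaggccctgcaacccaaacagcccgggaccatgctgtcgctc
Ccl17: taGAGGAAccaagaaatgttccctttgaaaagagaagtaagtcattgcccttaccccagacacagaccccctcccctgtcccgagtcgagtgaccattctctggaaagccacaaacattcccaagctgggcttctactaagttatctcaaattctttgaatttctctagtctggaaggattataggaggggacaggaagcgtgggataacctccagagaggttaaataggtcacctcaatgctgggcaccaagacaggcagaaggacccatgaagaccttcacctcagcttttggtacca
Capitals mark matches to the letters TGCTGA (a MAF half-site), GAGGAA (a core bound by PU.1 and related ETS factors) and TGANTCA (an AP-1 site), searched on both strands. The MAF half-site letters occurred in the windows of C1qb at -131, Stab1 at -43 and Plet1 at -243 from the gene start, and in 19.5% of all 32851 windows. The GAGGAA letters occurred in C1qb and Stab1, both at -30, and in C1qc, Pf4 and Ccl17, against 28.3% of all windows. The AP-1 letters occurred in Plet1 alone among the 7, against 7.81% of all windows. Of the 7, only Asgr2, whose window is not shown, matched an interferon-response element, against 3.44% of all windows. The matched letters did not overlap one another, and the C1qb and Stab1 windows each held the MAF and GAGGAA letters. A match of letters is not evidence of binding.

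The 3 C1q genes were lower in the selinexor library. C1qa had 44 UMIs there (3.43 CPM, counts scaled to the library total), against 433 in the DMSO library (30.4 CPM), a log2(CPM + 1) ratio of -2.83 (95% interval of the count ratio -3.63 to -2.70). C1qb had 129 UMIs with selinexor (10.0 CPM), against 643 with DMSO (45.2 CPM), a log2 ratio of -2.06 (-2.45 to -1.90). C1qc had 52 UMIs with selinexor (4.05 CPM), against 295 with DMSO (20.7 CPM), a log2 ratio of -2.11 (-2.81 to -1.93). The 3 chains summed to 225 UMIs with selinexor and 1371 with DMSO, a log2 ratio of -2.39 (-2.67 to -2.26). The mix of chains also differed in these counts. C1qa gave 19.6% (14.6 to 25.3, exact Clopper-Pearson interval) of the 225 C1q UMIs with selinexor, against 31.6% (29.1 to 34.1) of the 1371 with DMSO. C1qb gave 57.3% (50.6 to 63.9) with selinexor and 46.9% (44.2 to 49.6) with DMSO, and the C1qc intervals overlapped. These intervals treat UMIs as independent, although the 3 highest cells held 75 of the 225 selinexor and 237 of the 1371 DMSO C1q UMIs. A difference of the mix between the cultures was not tested.

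Pf4 and Stab1 were also lower with selinexor. Pf4 had 56 UMIs in the selinexor library (4.36 CPM), against 454 in the DMSO library (31.9 CPM), a log2 ratio of -2.62 (-3.30 to -2.47). Its DMSO signal was uneven, since the 3 highest cells held 99, 39 and 31 of the UMIs. Stab1 had 42 UMIs with selinexor (3.27 CPM), against 163 with DMSO (11.5 CPM), a log2 ratio of -1.54 (-2.33 to -1.31). No DMSO cell had more than 5 Stab1 UMIs. The Stab1 ratio was -0.78 after every cell was thinned to 2000 UMIs, which takes it under the 2-fold line.

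Asgr2 and Ccl17 were lower and Plet1 was not. Asgr2 had 90 UMIs with selinexor (7.01 CPM), against 456 with DMSO (32.1 CPM), a log2 ratio of -2.05 (-2.54 to -1.86). Ccl17 had 819 UMIs with selinexor (63.8 CPM), against 2668 with DMSO (188 CPM), a log2 ratio of -1.54 (-1.67 to -1.44). In DMSO the 3 highest cells held 431, 389 and 234 of the Ccl17 UMIs, together 39.5%. Plet1 had 935 UMIs with selinexor (72.8 CPM), against 946 with DMSO (66.5 CPM), a log2 ratio of 0.13 (-0.001 to 0.26). The median of all measured genes was also 0.13, and Plet1 was -0.003 with TMM scaling and -0.02 with median-of-ratios scaling.

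In all, 7 of the 8 genes were lower by 2-fold or more with selinexor and 0 were higher by as much. Among the 10393 measured genes, 1.13% were lower by 2-fold or more (117 genes) and 2.05% higher (213 genes). The members were chosen on this contrast, so their count is not read against that share. The split of the background depended on scaling, with 171 lower and 151 higher under TMM and 178 and 145 under median-of-ratios. These 2 scalings moved the median by -0.12 and -0.14.

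**Figure D1:**
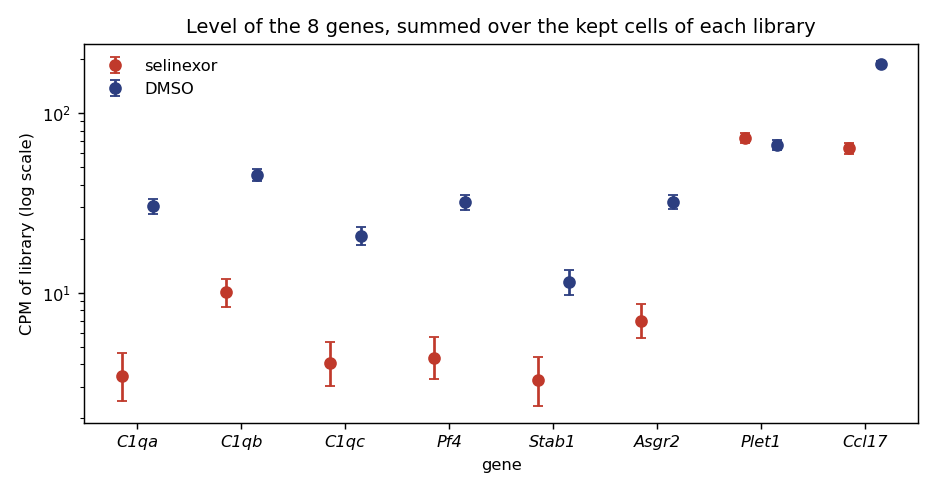
Level of each gene in the selinexor (left of each pair) and DMSO library, as CPM of all kept cells on a log axis. Points are the summed level of 1 library and bars are exact 95% Poisson intervals for counting error. Plet1 lies at 72.8 and 66.5 CPM, and the other 7 genes lie lower in the selinexor library.

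A cell was called positive with at least 2 UMIs, because free RNA leaves single UMIs in cells that do not make a gene. C1q-positive cells (at least 2 UMIs over the 3 chains) numbered 27 of 1967 in the selinexor library (1.37%, 0.906 to 1.99) and 71 of 1743 in the DMSO library (4.07%, 3.19 to 5.11). Pf4/Stab1-positive cells (at least 2 UMIs over both genes) numbered 12 with selinexor (0.610%, 0.316 to 1.06) and 71 with DMSO (4.07%, 3.19 to 5.11). Positive cells also held fewer C1q UMIs with selinexor, with a median of 5 per cell, against 11 with DMSO, at a median depth of 11645 UMIs per positive cell with selinexor and 11919 with DMSO. Both the number of cells and the UMIs per positive cell were thus lower for C1q.

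Ccl17 and Plet1 differed from this. Ccl17-positive cells made up 2.64% (1.98 to 3.45) of selinexor cells and 2.93% (2.19 to 3.83) of DMSO cells. Their median was 8 Ccl17 UMIs with selinexor, against 18 with DMSO, so the Ccl17 contrast lay in the amount per cell rather than in the share of cells. Plet1-positive cells made up 4.22% (3.37 to 5.20) of selinexor cells and 3.38% (2.59 to 4.34) of DMSO cells.

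The cutoff matters most for Pf4 and Stab1. Exactly 2 UMIs were held by 6 of the 27 selinexor and 9 of the 71 DMSO C1q-positive cells. For Pf4 plus Stab1 the numbers were 11 of 12 in the selinexor library and 30 of 71 in the DMSO library. Just below the cutoff, 47 selinexor and 35 DMSO cells held 1 C1q UMI, and 70 selinexor and 105 DMSO cells held 1 Pf4 or Stab1 UMI. In cells led by early neutrophil granule genes (Elane, Mpo, Ctsg), whose median depth was 11838 UMIs with selinexor and 11194 with DMSO, 0 of 153 and 0 of 213 cells were C1q-positive. A count of 0, taken as under 3 counts, allows a share of up to 1.96% with selinexor and 1.41% with DMSO, and the exact upper limits are 2.38% with selinexor and 1.72% with DMSO. At the same cutoff 1 of 153 selinexor cells (0.654%, 0.017 to 3.59) and 0 of 213 DMSO cells were Pf4/Stab1-positive. The interval around this single selinexor cell holds the share over all selinexor cells (0.610%), whose median depth was lower, at 3984 UMIs. It also overlaps that of cluster 3, where 8 of 340 selinexor cells were positive (2.35%, 1.02 to 4.58) at a median depth of 11846 UMIs. The selinexor cell with most Pf4 lay in cluster 3 and held 4 Pf4, 2 Stab1 and 17 C1q UMIs. At this depth the shares over all selinexor cells and in cluster 3 could not be told from this background. The share among C1q-positive selinexor cells is given below. In the cells led by early neutrophil genes, a single C1q UMI or more occurred in 1.31% with selinexor and 0.469% with DMSO. A Pf4 or Stab1 UMI occurred there in 3.92% with selinexor and 4.23% with DMSO.

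The shares were also taken at equal depth. With every cell thinned to 2000 UMIs, 783 selinexor and 314 DMSO cells were too shallow and left out, which also changes the mix of cells. At the 2-UMI cutoff 0.676% of the remaining 1184 selinexor cells were C1q-positive, against 3.22% of 1429 DMSO cells, and 0 selinexor cells were Pf4/Stab1-positive, against 11 DMSO cells (0.770%). At 1 UMI, where free RNA counts too, the shares were closer. A C1q UMI was found in 1.77% of selinexor cells and 4.20% of DMSO cells. A Pf4 or Stab1 UMI was found in 1.69% of selinexor cells and 3.57% of DMSO cells. For Plet1 the shares were 5.49% with selinexor and 3.29% with DMSO, and for Ccl17 they were 4.39% with selinexor and 3.36% with DMSO.

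Cells of both libraries were clustered together without the 8 genes, giving 13 clusters. Most DMSO UMIs of every member, and most selinexor UMIs of Plet1 and Ccl17, lay in cluster 7, which had 48 selinexor cells (2.44% of the library) and 214 DMSO cells (12.3%). This cluster was led by the MHC class II genes H2-Ab1, H2-Eb1 and H2-Aa and their activator Ciita, beside 6 of the 8 genes. It had 9 of 13 macrophage and 8 of 13 dendritic cell markers, the shorter marker sets used for naming, at least 2-fold higher than other cells, so it has no cell type name here. The label of macrophage genes is thus met only in part by the cells that hold them.

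With selinexor the genes were scattered over several clusters. Cluster 7 held 97 of 225 C1q UMIs (43.1%), and 82 (36.4%) lay in cluster 3, with 340 selinexor and 9 DMSO cells. Cluster 3 scored highest for the macrophage markers, with 3 of 13 at least 2-fold higher, the fewest that allow the name macrophage-like, and its 10 leading genes held 1 macrophage marker (Mrc1) and 1 monocyte marker (Fn1). It is therefore given by its number. Being almost wholly from 1 library, cluster 3 may be a state of that library rather than a cell type. Only 1 of 56 selinexor Pf4 UMIs was in cluster 7, and 24 were in cluster 3. The Pf4 level in cluster 3 was 5.84 CPM with selinexor, against 9.33 in cluster 0 and 6.09 in cluster 4. Ccl17 was split between cluster 7, with 468 of 819 UMIs, and cluster 11, with 286. Cluster 11 was a dendritic-like cluster led by Ccl22, Ccl5, Ccr7 and Fscn1, with 35 selinexor and 5 DMSO cells. Plet1 had 592 of 935 selinexor UMIs in cluster 7 and 248 in cluster 3.

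In DMSO the genes were gathered in cluster 7. It held 1293 of 1371 DMSO C1q UMIs (94.3%), 422 of 456 for Asgr2, 2549 of 2668 for Ccl17, 870 of 946 for Plet1 and 384 of 454 for Pf4. Stab1 was the most spread, with 86 of 163 DMSO UMIs there (52.8%).

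**Figure D2:**
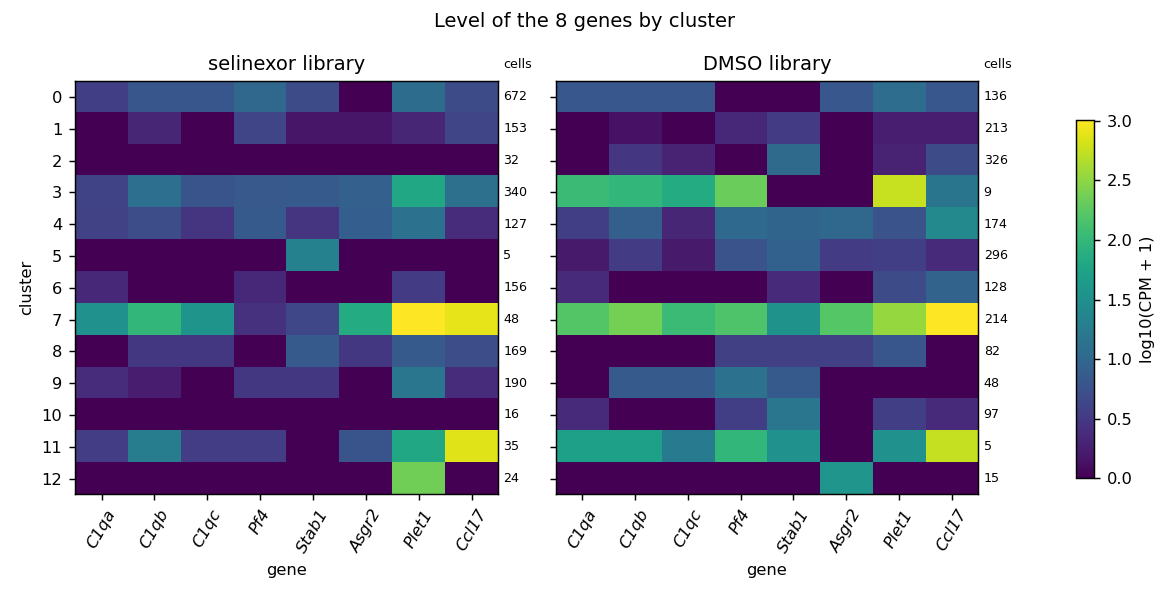
Level of each gene in each of the 13 clusters, selinexor library left and DMSO library right, as log10(CPM + 1) over the cluster's cells of that library, with the number of cells beside each row. In DMSO the 8 genes are high together in cluster 7 (214 cells), while with selinexor Pf4 and Stab1 are near 0 there (48 cells). Rows with few cells, such as 9 and 5 DMSO cells in clusters 3 and 11, rest on few UMIs.

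Within cluster 7, the genes separated. Pf4 had 1 UMI in the 48 selinexor cells (1.69 CPM), against 384 UMIs in the 214 DMSO cells (151 CPM), a log2 ratio of -5.82 whose counting interval runs from -11.79 to -3.99. Stab1 had 2 UMIs with selinexor and 86 with DMSO, a log2 ratio of -2.99 (-6.39 to -1.43). At least 2 UMIs over Pf4 and Stab1 were found in 1 of 48 selinexor cells, against 50 of 214 DMSO cells. C1qa (-2.29), C1qc (-1.61), C1qb (-1.29) and Asgr2 (-1.25) were also lower in log2 ratio.

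Plet1 went the other way. In cluster 7 it had 592 UMIs with selinexor (999 CPM), against 870 with DMSO (342 CPM), a log2 ratio of 1.55 (1.40 to 1.70). It was positive in 75.0% (60.4 to 86.4) of the selinexor cells, against 24.8% (19.1 to 31.1) of the DMSO cells. Ccl17 was positive in 58.3% (43.2 to 72.4) of selinexor cells, against 19.6% (14.5 to 25.6) of DMSO cells, while its log2 ratio was -0.34 (-0.49 to -0.20). In cluster 7, 6.03% of 6249 measured genes were lower by 2-fold or more and 2.16% higher. Median depth there was 12340.5 UMIs per cell with selinexor and 11275.5 with DMSO.

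Outside cluster 7, Plet1 was higher too, with 343 UMIs in selinexor cells (28.0 CPM) and 76 in DMSO cells (6.51 CPM), a log2 ratio of 1.95 (1.74 to 2.48). Plet1 was therefore higher in each compartment and about equal in the library sum, where cluster 7 had the smaller share of selinexor cells. Ccl17 (1.41), C1qc (0.68) and C1qb (0.61) had positive log2 ratios outside cluster 7. At the 2-UMI cutoff, 3 selinexor and 3 DMSO cells there were C1qc-positive. The ratio was 0.35 for Asgr2, 0.03 for C1qa and -0.35 for Pf4, each with an interval spanning 0, and -0.83 for Stab1 (-1.60 to -0.44).

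Most cells positive for C1qa or C1qc were also C1qb-positive. With selinexor 6 cells were C1qa-positive and all 6 were C1qb-positive, among 21 C1qb-positive and 8 C1qc-positive cells. With DMSO 37 of 42 C1qa-positive cells were C1qb-positive and 34 were C1qc-positive, and 43 of 45 C1qc-positive cells were C1qb-positive. The reverse shares were lower. Of 64 C1qb-positive DMSO cells, 57.8% were C1qa-positive and 67.2% C1qc-positive. Of the 21 C1qb-positive selinexor cells, 28.6% were C1qa-positive and 28.6% C1qc-positive. Pearson's r of log2(1 + UMIs per 10000) for C1qa with C1qb was 0.40 over the 1967 selinexor cells and 0.82 over the 1743 DMSO cells. It was 0.32 with selinexor and 0.81 with DMSO for C1qa with C1qc, and 0.41 with selinexor and 0.85 with DMSO for C1qb with C1qc. These values describe cells of 1 library that share its depth differences and free RNA.

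Plet1 and Ccl17 were also found together. Among pairs of the 8 genes, r was highest for this pair with selinexor, and came next after the 3 C1q pairs with DMSO. With selinexor 35 cells were positive for both, 42.2% of 83 Plet1-positive and 67.3% of 52 Ccl17-positive cells, with r of 0.49. With DMSO 31 cells were positive for both, 52.5% of 59 Plet1-positive and 60.8% of 51 Ccl17-positive cells, with r of 0.59. Asgr2 was shared with this pair in both libraries, and with C1q mainly in DMSO cells. At least 2 UMIs over Plet1 and Ccl17 were held by 7 of 16 Asgr2-positive selinexor cells (43.8%, 19.8 to 70.1). With DMSO they were held by 29 of 42 (69.0%, 52.9 to 82.4). Of 16 Asgr2-positive selinexor cells, 2 were C1q-positive, 5 were Plet1-positive, 5 were Ccl17-positive and 0 were Pf4-positive. Its r over selinexor cells was 0.15 with the C1q sum, 0.26 with Plet1 and 0.25 with Ccl17. Of 42 Asgr2-positive DMSO cells, 23 were C1q-positive, 23 were Plet1-positive, 18 were Ccl17-positive and 4 were Pf4-positive. Its r over DMSO cells was 0.43 with the C1q sum, 0.37 with Plet1, 0.36 with Ccl17 and 0.06 with Pf4. The Pf4 and Stab1 pair was looser, with 1 of 6 Pf4-positive selinexor cells also Stab1-positive and r of 0.02. There were 11 DMSO cells positive for both, 26.2% of 42 Pf4-positive and 36.7% of 30 Stab1-positive cells, with r of 0.33.

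**Figure D3:**
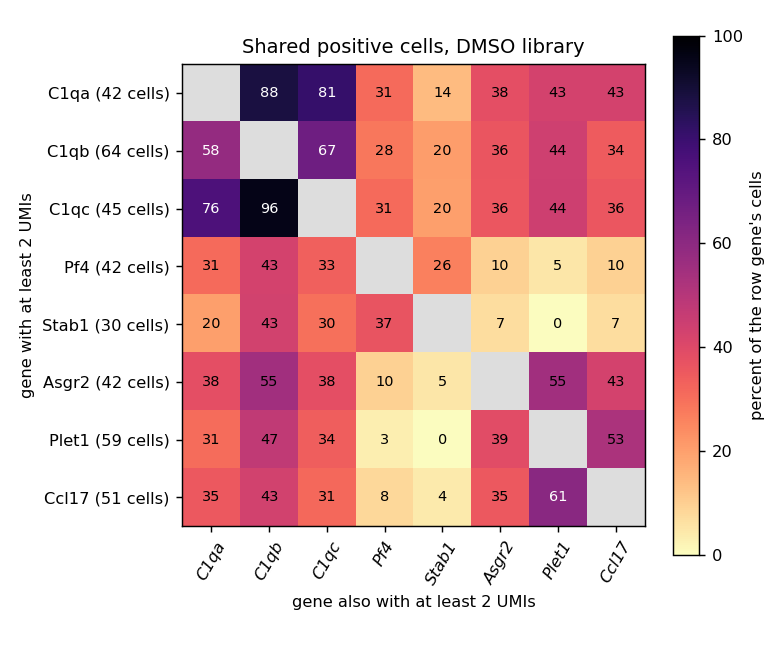
Percent of the cells positive for the row gene that were also positive for the column gene (at least 2 UMIs of each), in the DMSO library. The highest shares are in the C1q block, which runs from 57.8% (C1qb row, C1qa column) to 95.6% (C1qc row, C1qb column). Plet1 and Ccl17 share 31 cells, and 0 cells were positive for both Plet1 and Stab1.

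C1q and Pf4/Stab1 neither coincided nor excluded each other. In the selinexor library 4 cells were positive for both, 23 for C1q alone and 8 for Pf4/Stab1 alone. Of the 27 C1q-positive selinexor cells, 14.8% (4.19 to 33.7) were Pf4/Stab1-positive, against 0.412% (0.178 to 0.811) of the 1940 C1q-negative ones. These cells were too few to describe the overlap further. Of the 23 C1q-only selinexor cells, 12 lay in cluster 3 and 9 in cluster 7. In the DMSO library both were positive in 29 cells, which is 40.8% (29.3 to 53.2) of the 71 C1q-positive cells and the same share of the 71 Pf4/Stab1-positive cells. Among C1q-negative cells, 2.51% were Pf4/Stab1-positive. C1q alone was positive in 42 cells and Pf4/Stab1 alone in 42. The sharing was also seen inside cluster 7, where 26 of 60 C1q-positive cells (43.3%) were Pf4/Stab1-positive, against 24 of 154 C1q-negative cells (15.6%). The pooled r of the sums was 0.35. After thinning to 2000 UMIs, 6 double-positive cells were left, 13.04% of 46 C1q-positive and 54.5% of 11 Pf4/Stab1-positive cells. At 1 UMI, 39 of 176 Pf4/Stab1-positive cells (22.2%) were C1q-positive. Requiring 3 UMIs of each left 14 double-positive cells, 22.6% of 62 C1q-positive and 34.1% of 41 Pf4/Stab1-positive cells.

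The DMSO cell with most Pf4, at 99 UMIs, also held 13 C1q UMIs, and the next held 39 Pf4 and 34 C1q UMIs. The fourth held 25 Pf4 UMIs and 0 C1q UMIs. High Pf4 thus occurred with and without C1q. The median depth was 11868 UMIs in C1q-only cells, 12457 in double-positive cells and 13097.5 in Pf4/Stab1-only cells. The part of doublets in the double-positive cells was not tested.

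**Figure D4:**
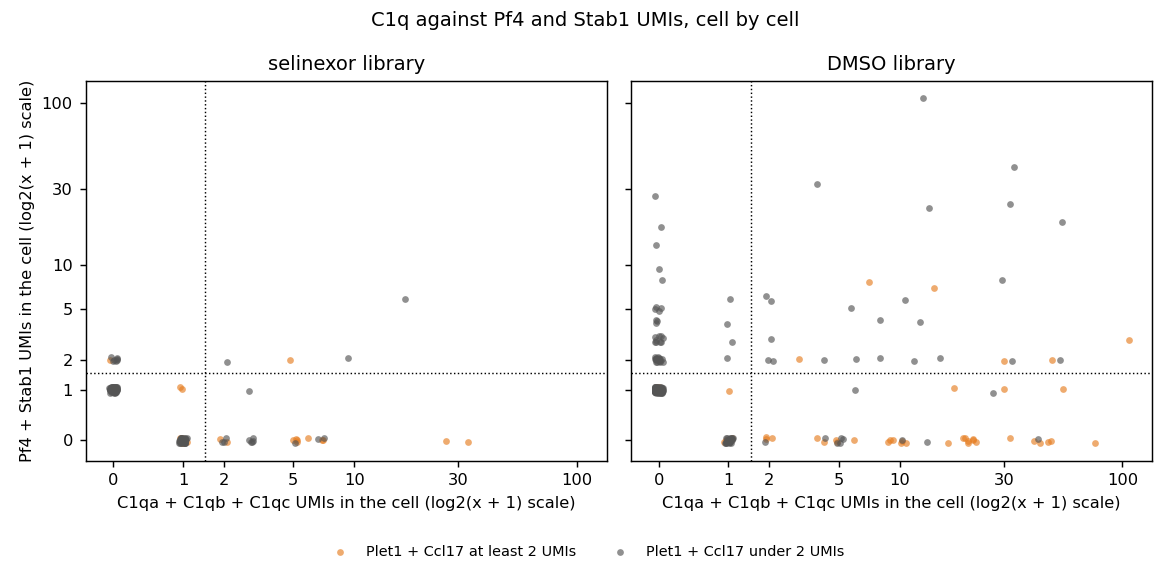
UMIs of the 3 C1q chains (x) and of Pf4 plus Stab1 (y) in each cell with at least 1 of them, selinexor left and DMSO right, on log2(x + 1) axes with small random shifts to separate points. Dotted lines mark the 2-UMI cutoff and orange cells hold at least 2 UMIs of Plet1 plus Ccl17. In DMSO the 42 cells in the upper left hold 0 orange cells, while most of the C1q-only cells at the lower right are orange.

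Plet1 and Ccl17 divided the C1q-positive cells. Of the 27 selinexor C1q-positive cells, 11 were also positive for Plet1/Ccl17 (at least 2 UMIs over both) and not for Pf4/Stab1, 3 for Pf4/Stab1 and not for Plet1/Ccl17, 1 for all, and 12 for C1q alone. Of the 71 DMSO cells, 31 were also positive for Plet1/Ccl17 and not for Pf4/Stab1, 23 for Pf4/Stab1 and not for Plet1/Ccl17, 6 for all, and 11 for C1q alone. Plet1/Ccl17 and Pf4/Stab1 without C1q were found together in 0 DMSO cells. The median depth of the 6 cells positive for all was 18168 UMIs, against 11919 for the 31 and 10529 for the 23. A further 45 cells were positive for Plet1/Ccl17 alone. Inside DMSO cluster 7, 2 of 50 Pf4/Stab1-positive cells were Plet1-positive (4.00%), against 51 of 164 Pf4/Stab1-negative cells (31.1%), and r was -0.26.

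The C1q-only and Pf4/Stab1-only DMSO cells differed in the other genes of the set, which did not define them. The sets lay in partly different clusters, with 34 of 42 C1q-only and 24 of 42 Pf4/Stab1-only cells in cluster 7, and 4 C1q-only and 8 Pf4/Stab1-only cells in the proliferating cluster 4. Ccl17 had 869 UMIs in the 42 C1q-only cells and 1 in the 42 Pf4/Stab1-only cells, a log2 ratio of 9.24 (7.38 to 15.17). Plet1 had 434 UMIs in C1q-only and 4 in Pf4/Stab1-only cells, a ratio of 6.68 (5.49 to 8.74). Asgr2 had 176 UMIs in C1q-only and 2 in Pf4/Stab1-only cells, a ratio of 6.22 (4.69 to 9.62). The 3 genes were also found in the 130 DMSO cells of cluster 7 that were positive for neither sum. Ccl17 was at 1043 CPM there, against 1737 in C1q-only cells, Plet1 at 288 against 867 and Asgr2 at 138 against 352. At least 2 UMIs of Plet1 were found in 27 of 42 C1q-only cells, 2 of 29 double-positive cells and 0 of 42 Pf4/Stab1-only cells. For Plet1 the double-positive cells were thus closer to the Pf4/Stab1-only cells. Within cluster 7 alone, a comparison added after seeing the data, the log2 ratio was 8.94 for Ccl17, 6.06 for Plet1 and 5.79 for Asgr2. These are sums over cells of 1 library, and cells are not replicates.

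The listed dendritic cell genes with enough UMIs to compare, most of them for antigen presentation, were higher in C1q-only than in Pf4/Stab1-only cells. H2-Eb1, an MHC class II chain, had 2620 CPM in C1q-only cells and 106 CPM in Pf4/Stab1-only cells (log2 ratio 4.61). The ratio was 3.75 for H2-Ab1, 3.35 for H2-Aa, 2.70 for the class II chaperone Cd74 and 3.84 for Ciita. Of the 17 listed dendritic cell genes, 9 had at least 20 UMIs over both sets. Fscn1, Ccr7, Ccl22 and Cd83 of that list had at most 3 UMIs in C1q-only and at most 1 in Pf4/Stab1-only cells. All 17 summed to 25544 CPM in C1q-only, 10672 in double-positive and 4126 in Pf4/Stab1-only cells. Cd74 alone gave 10559 CPM of the C1q-only sum and 1626 CPM of the Pf4/Stab1-only sum. Within cluster 7 alone the sums were 31012 in C1q-only, 11389 in double-positive and 5655 in Pf4/Stab1-only cells, and the H2-Eb1 ratio was 4.16. Double-positive cells were thus intermediate. The lectin Mgl2 (CD301b) had 869 CPM in C1q-only and 28.0 CPM in Pf4/Stab1-only cells (4.91). Mfge8, a bridge to dying cells, was at 3.26 and the receptor Axl at 2.64. The 130 DMSO cells of cluster 7 that were positive for neither sum also held these genes. H2-Eb1 was at 902 CPM there, H2-Ab1 at 1446, Cd74 at 5023 and Mgl2 at 331. High levels of these genes were thus not particular to C1q-positive cells. Among 1484 genes compared, 3.64% were higher by 2-fold or more and 3.98% lower in C1q-only cells, with a median of -0.04. These genes met a higher UMI minimum than the listed genes, so their shares are not a background for counts of listed genes.

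The genes with the lowest ratios of C1q-only over Pf4/Stab1-only cells were ranked over all genes compared, and of those named here only Vcan is on the monocyte list. The acute phase gene Saa3 had 154 CPM in C1q-only cells, against 1499 CPM in Pf4/Stab1-only cells, a log2 ratio of -3.28. The ratio was -2.17 for Thbs1 (thrombospondin 1), -2.16 for Vcan (the proteoglycan versican), -1.99 for Hp (haptoglobin), -1.92 for Glrx (glutaredoxin), -1.91 for Bst1 (an ADP-ribosyl cyclase) and -1.84 for the lectin Clec4d. Within cluster 7 alone the Saa3 ratio was -3.87, that of Hp -1.32, and the other 5 lay between -2.62 and -2.05. Of 8 monocyte genes with at least 20 UMIs over both sets, 5 were at least 2-fold lower in C1q-only cells and 0 higher, and Irf8 was at 0.46. The share of all genes past 2-fold was not taken at this 20-UMI minimum. The monocyte count thus has no matching background here and was not tested. The 10 listed monocyte genes summed to 1091 CPM in C1q-only, 1938 in double-positive and 2467 in Pf4/Stab1-only cells, and the 18 macrophage genes to 4438 CPM in C1q-only, 10605 in double-positive and 8891 in Pf4/Stab1-only cells. In cluster 7 alone the monocyte sum was 993 CPM in C1q-only and 2344 in Pf4/Stab1-only cells, and the macrophage sum 3153 in C1q-only and 10436 in Pf4/Stab1-only cells. The neutrophil sum changed order, with 13195 CPM in C1q-only and 28053 in Pf4/Stab1-only cells over all clusters, but 11175 in C1q-only and 6639 in Pf4/Stab1-only cells within cluster 7. The proliferation genes summed to 556 CPM in C1q-only and 869 in Pf4/Stab1-only cells. Megakaryocyte markers other than Pf4 summed to 8 UMIs in the 42 C1q-only cells, 6 in the 29 double-positive cells and 9 in the 42 Pf4/Stab1-only cells.

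The transcription factor gene Maf was highest in double-positive cells. It had 3 UMIs in C1q-only cells, all in 1 cell, 76 in double-positive cells (11 of 29 cells) and 31 in Pf4/Stab1-only cells (6 of 42 cells, 1 of them holding 19). Its log2 ratio between C1q-only and Pf4/Stab1-only cells was -3.07 (-5.62 to -1.59). The sets also differed in Pf4, at 756 CPM in double-positive and 250 CPM in Pf4/Stab1-only cells. In cluster 7 lay 26 of 29 double-positive and 24 of 42 Pf4/Stab1-only cells. The part of these differences in the Maf values was not tested. The macrophage receptors Adgre1 (0.10) and Csf1r (0.22) and the factor Spi1, which encodes PU.1 (0.05), were near 0. Within cluster 7 alone these ratios were 0.10 for Adgre1, -0.13 for Csf1r and 0.07 for Spi1, each with an interval spanning 0.

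**Figure D5:**
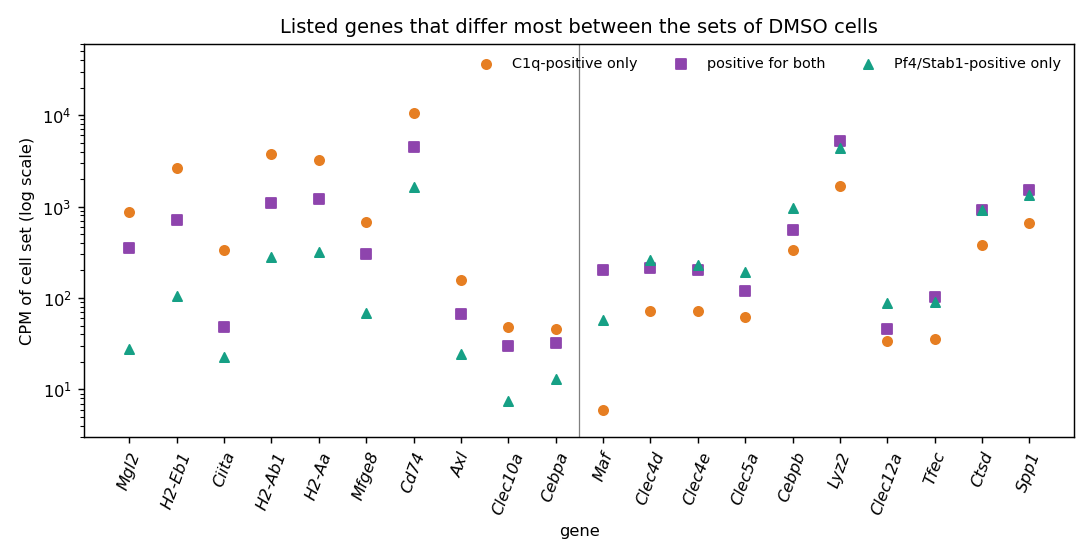
CPM on a log axis of the 10 listed genes with the highest (left of the line) and the 10 with the lowest C1q-only over Pf4/Stab1-only ratio, in C1q-only (42), double-positive (29) and Pf4/Stab1-only (42) DMSO cells. The class II genes step down from C1q-only through double-positive to Pf4/Stab1-only cells, and Maf is highest in double-positive cells.

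The genes most like each sum were ranked over all 1743 DMSO cells. For the C1q list below, r was 0.17 to 0.26 in the 1967 selinexor cells, and for the Pf4 plus Stab1 list it was at most 0.09, with Maf at 0.01. In DMSO cells, the genes most like the C1q sum were Aif1 (r of 0.54), a gene of microglia and macrophages, Mgl2 (0.52), the chemokine Cxcl16 (0.52), Ciita (0.49), H2-Aa (0.49), H2-Ab1 (0.49) and H2-Eb1 (0.48). Those most like Pf4 plus Stab1 were the cholesterol exporter Abca1 (0.45), Maf (0.45), the mannose receptor Mrc1 (0.39), Ms4a7 (0.38), Serpinb2 (0.37), C1qb (0.36) and the scavenger receptor Msr1 (0.36). Both lists were drawn from 10589 genes.

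Other complement components are given beside the values over all measured genes. The C1q genes had been picked with their lower level in view, so these components are not contrasted with them. Over all measured genes, 2.05% were at least 2-fold higher with selinexor and 1.13% lower, with a median of 0.13. Of 18 listed, 4 were measured and 0 were past 2-fold between libraries, with a median log2 ratio of 0.16. Properdin (Cfp), which stabilises the alternative pathway convertase, was at -0.86, factor B (Cfb) at 0.76, C3 at 0.49 and C1ra at -0.17. Of 13 measured receptors and regulators, 1 was at least 2-fold higher and 0 lower (median 0.18). That was Cd93, once described as a C1q receptor, with 111 CPM with selinexor and 48.0 CPM with DMSO (1.19). Clu was at 0.82, Cd59a at 0.75 and Cd55 at -0.69.

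Macrophage genes went in both directions, with 3 of 18 at least 2-fold higher and 2 lower (median -0.15), beside the 2.05% higher and 1.13% lower over all measured genes. No list was tested against these shares. Gpnmb (1.64) and the protease Ctsd (1.27) were higher, and Maf (-1.20) and the lipid receptor Trem2 (-1.15) lower. Scavenger and efferocytosis receptors had 3 of 11 higher and 0 lower (median 0.65), with Axl at 1.59, the fatty acid receptor Cd36 at 1.23, Mrc1 at 1.08 and Scarb2 at 0.70. Stab1 was therefore lower while 3 other receptors of this list were higher. C-type lectins had 1 of 10 higher and 0 lower (median 0.16), with Clec10a at 1.26, Clec5a at -0.72, Clec4a1 at 0.71 and Clec4a3 at 0.56. Transcription factors had 2 of 18 higher and 1 lower (median 0.22), with Id3 at 1.25, Irf8 at 1.23, Maf at -1.20 and Nr1h3 at 0.90.

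Other chemokines were split. The list had 3 of 12 at least 2-fold higher and 2 lower (median 0.02). Ccl22, which shares the receptor CCR4 with Ccl17, had 200.3 CPM with selinexor and 16.6 CPM with DMSO (3.52), and Ccl5 was at 4.02. The neutrophil attractants Cxcl2 (-1.98) and Cxcl3 (-1.65) were lower. The dendritic cell list had 5 of 15 higher and 0 lower (median -0.31), led by Ccl22, Fscn1 (3.36), Ccr7 (3.27) and Cd83 (2.13). Monocyte genes had 3 of 9 higher and 1 lower (median 0.70), with Fn1 at 2.95 and Ms4a6c at -1.52. Neutrophil genes had 0 of 9 higher and 1 lower (Il1r2, -1.10, median -0.60), proliferation genes 0 of 4 past 2-fold (median -0.33), and mast and basophil genes 2 of 2 lower (Mcpt8 -3.84, Prss34 -2.69). These 2 rest on few cells, since the 3 highest DMSO cells held 264 of 301 Mcpt8 UMIs and 99 of 99 Prss34 UMIs. The only measured megakaryocyte marker, Vwf, was at 0.67. The mix of cells differed between the libraries, as in clusters 3, 7 and 11, and its part in these list values was not tested.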

How the data were processed

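The authors made the deposited UMI counts per gene and cell with Cell Ranger 6.1.2 on build mm10, according to the submitters' processing notes and the file headers. No source used here gives the annotation release or the cell-calling rule. The tables list 32285 genes and 12 sample tags, which entered no total; each library had 1 top tag. Kept cells had 200 genes or more and less than 10% of UMIs from mitochondrial genes, which removed 22 selinexor and 41 DMSO barcodes. No doublet caller was used, because an earlier one had marked almost no cells, and leaving out cells above the 98th percentile of UMIs was tried in its place.

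CPM values are sums over a library's kept cells, scaled to its total, and ratios are log2(CPM + 1), which understates the ratio of low genes. Intervals are exact at 95% (Poisson for sums, conditional binomial for count ratios, Clopper-Pearson for shares). Genes needed 50 UMIs over both libraries, or within cluster 7, and 100 over both cell sets (20 for listed genes). A 2-fold difference was the call rule. Clustering used 2000 variable genes without the 8 members, 30 principal components, 15 neighbours and Leiden resolution 1.0 (scanpy 1.11.5, leidenalg 0.10.2, Python 3.11.15). TMM factors came from edgeR 4.0.16 in R 4.3.3. Gene coordinates are from GENCODE on the same build, and all 8 members matched. The script was tested on simulated data.

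The members, the 13 gene lists and the rules were chosen with earlier results of these data known. Named genes are the 8 members, up to 4 measured genes per list with the largest absolute ratio, the 8 genes most correlated with each sum among genes with a UMI in at least 20 DMSO cells, and the 8 highest and 8 lowest genes of at least 100 UMIs between the DMSO cell sets. Ribosomal, mitochondrial and unnamed genes were left out of the last. The chains and Pf4 that head that ranking define the sets and are not given as results. The listed genes named between the cell sets for class II, Mfge8, Axl, Adgre1, Csf1r, Spi1, Irf8 and Maf were chosen after their values were seen. A gene that the rules name is not reported here. The lists cover complement components, complement receptors and regulators, macrophage, scavenger and efferocytosis receptor, C-type lectin, chemokine, dendritic cell, transcription factor, monocyte, neutrophil, megakaryocyte, mast and basophil, and proliferation genes.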

Additional observations from a re-analysis of the deposited data

Results flagged for a closer look

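The summed UMIs of C1qb, C1qc and Ccl17 had log2 ratios of opposite sign inside and outside cluster 7. The log2 ratio of selinexor over DMSO for C1qb was -1.29 in cluster 7 and 0.61 in all other cells. For C1qc it was -1.61 in cluster 7 and 0.68 in all other cells. For Ccl17 it was -0.34 in cluster 7 and 1.41 in all other cells. With 1 library per group the difference between the compartments was not tested. Outside cluster 7, the C1qb sum was 72 UMIs with selinexor and 41 with DMSO, of which 48 selinexor UMIs and 7 DMSO UMIs lay in cluster 3. The C1qc sum was 31 UMIs with selinexor and 14 with DMSO. The count-ratio intervals were 0.17 to 1.33 for C1qb and 0.12 to 2.10 for C1qc. At the 2-UMI cutoff, 3 selinexor (0.156%) and 3 DMSO cells (0.196%) there were C1qc-positive. For C1qb the shares were 0.73% (0.40 to 1.22) with selinexor and 0.52% (0.23 to 1.03) with DMSO. The part of single UMIs from free RNA in these sums was not tested. Outside cluster 7, Ccl17 had 351 UMIs with selinexor, 286 of them in the dendritic-like cluster 11, and 119 with DMSO.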

How the results depend on the processing

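The summed C1q and the summed Pf4 plus Stab1 UMIs were lower with selinexor under all 10 settings run. The C1q log2 ratio was -2.22 with every cell weighted equally and -2.67 without the 3 highest cells of each library, a setting chosen after seeing the data. The Pf4 plus Stab1 ratio was -2.12 and -2.02 under the same settings. The number of genes at least 2-fold lower was 7 under every setting but thinning, where it was 6 (Stab1). Plet1 ranged from -0.02 to 0.52 and had no stable sign. The share of DMSO C1q-positive cells that were Pf4/Stab1-positive was 22.6% with at least 3 UMIs (14 of 62) and 13.04% after thinning (6 of 46). The share of Pf4/Stab1-positive cells that were C1q-positive was 22.2% with at least 1 UMI (39 of 176) and 54.5% after thinning (6 of 11), where few cells remain. Between C1q-only and Pf4/Stab1-only cells, the named genes other than Irf8 were also compared within cluster 7 alone. They kept their direction there except Csf1r, whose ratio was 0.22 over all clusters and -0.13 in cluster 7, both with intervals spanning 0. Cluster 7 or its counterpart held 94.3% to 96.4% of DMSO C1q UMIs under other clusterings. No paired analysis was possible because each group has 1 library. Counting error and cell depth limit all values for cells with under 3 UMIs.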

Other observations

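Among listed genes other than the 8 members, cluster 7 cells of the selinexor library also held less Maf, with 2 UMIs against 111 in DMSO cells (log2 ratio -3.35), and less Trem2, with 20 against 341 (-1.96). Factor B (Cfb) had 2 UMIs with selinexor and 61 with DMSO (-2.51), and C3 had 54 with selinexor and 515 with DMSO (-1.14), although both had positive ratios in the library sums. The chemokine Cxcl2 had 62 UMIs with selinexor and 1975 with DMSO (-2.88). Higher in the selinexor cells of the cluster were Axl, with 154 UMIs against 183 (1.84), and the lectin Clec10a, with 72 against 59 (2.34). These were chosen after their values were seen, and the part of the smaller cluster in them was not tested.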
